A study of Mus musculus with 27 samples.

Results

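The luminal mammary identity and ErbB genes described here were 10 genes chosen by name, Gata3, Foxa1, Esr1, Prlr, Stat5a, Elf5, Kit, Erbb2, Erbb3 and Areg, taken from a table of 24454 genes. All 10 were found in the table, and all 10 passed the filter on low values (at least 1 CPM in at least 2 libraries), as did 13270 genes in all. CPM is the number of reads of a gene per 1000000 reads assigned to genes. The levels were measured by RNA-sequencing in 9 cell lines established from thoracic mammary gland tumors of 12-week-old female MMTV-PyMT mice (FVB/N). In this model the mouse mammary tumor virus promoter drives the polyoma middle T oncogene in mammary epithelium, and all 9 lines carry it. The lines differ in Bcl9 and Bcl9L, 2 coactivators that connect β-catenin with Pygopus. Lines of genotype ΔHD1/fl have 1 allele without the Pygopus-binding domain HD1 and 1 floxed wild-type allele, and ΔHD2/fl lines have 1 allele without the β-catenin-binding domain HD2 beside the floxed allele. An adenovirus that carries Cre and GFP, followed by a sort for GFP, had deleted the floxed allele in culture in the recombined lines, ΔHD1/- and ΔHD2/-, which leaves the mutant form. There were 2 lines each of ΔHD1/fl, ΔHD1/- and ΔHD2/fl and 3 of ΔHD2/-. Every line was sampled with no cytokine, with Wnt3a (100 ng/ml, 3 days) and with TGFβ (2 ng/ml, 4 days), which gave 27 libraries in 12 groups. The labels give the untreated libraries a time point of 4 days and the Wnt3a libraries 3 days. They also state that all cells were plated together and their RNA was taken at the same time. Whether time in culture differed is thus not clear, and such a difference could not be told apart from that of Wnt3a. Replicates were thus different cell lines, each derived from 1 tumor, and whether lines that share a number also share a tumor is not in the labels.

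The mammary epithelium has an inner luminal and an outer basal or myoepithelial layer. Gata3, Foxa1 and the estrogen receptor Esr1 form the transcription factor set of the hormone-sensing luminal cells, whereas the prolactin receptor Prlr, its signal transducer Stat5a and the transcription factor Elf5 drive the alveolar, milk-producing branch, and the receptor tyrosine kinase Kit marks luminal progenitors. Erbb2 and Erbb3 are receptor tyrosine kinases that signal as a pair, in which Erbb3 binds neuregulins and Erbb2 supplies most of the kinase activity, and Areg (amphiregulin) is a ligand of Egfr, the partner receptor, and is a known target of estrogen signaling in the gland. TGFβ induces an epithelial to mesenchymal transition in many epithelial cells, and Wnt3a activates β-catenin signaling.

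Libraries held 21.86 to 33.69 M reads (1 M is 1000000 reads, median 25.96 M), and 3 reads, the limit that a count of 0 allows, equaled 0.089 to 0.137 CPM, which covers counting error only. The epithelial label was checked in the untreated cells. Epcam, Cdh1, Krt8 and Krt18, all epithelial genes, were high in 7 lines (Epcam 263 to 910 CPM, Cdh1 606 to 1145 CPM). In ΔHD1/fl line 2 and ΔHD1/- line 2, Epcam was at 0.0746 and 0 CPM and Cdh1 at 0.522 and 0.237 CPM. Krt8 was at 0.336 CPM in ΔHD1/fl line 2 but at 1089 CPM in ΔHD1/- line 2, where its partner keratin Krt18 was at 2.23 CPM. The mesenchymal filament gene Vim was at 4188 and 3678 CPM in these 2 lines, against 2.48 to 761 CPM elsewhere. The summed level of a list of 10 fibroblast genes was 2650 and 6466 CPM in them and 4.48 to 508 CPM in the other 7. Of this list Lum and Thy1 were at 0 in both, whereas Col1a1 (659 and 2603 CPM) and Pdgfra (416 and 629 CPM) were high (Lum, Thy1 and Pdgfra were named after their values were seen). Markers of basal epithelium went both ways in these 2 lines (same order, all named after their values were seen). Trp63 was at 180 and 75.8 CPM, Krt14 at 356 and 223 CPM and Itgb4 at 459 and 96.9 CPM. Krt5 was at 1.04 and 0.92 CPM. The epithelial label therefore held for some markers of these 2 lines and not for others. Values without these lines are given beside the results they touch. The leukocyte gene Ptprc, likewise named afterwards, was at most 0.0457 CPM in the untreated libraries. ΔHD2/- lines 2 and 3 resembled each other far more than other replicates did (correlation across genes 0.993 to 0.997, against 0.807 to 0.957 in the 15 other pairs within a group), though they were not 1 library deposited more than once (chi-square 12.7 to 33.5 per degree of freedom). The labels list them as separate lines and do not say whether they share a tumor or an infection. The supplement of the paper describes primary cells from 2 different tumors, fewer than the 3 ΔHD2/- lines. Lines 2 and 3 enter the main fit as separate replicates, and their independence was not tested.

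The first question was which lines keep luminal identity without cytokine. Of the 7 luminal genes (all members except Erbb2, Erbb3 and Areg), ΔHD2/- line 1 held 6 at 1 CPM or more, the most of any line. ΔHD1/fl line 1 and both ΔHD2/fl lines held 5 each. The 2 ΔHD1/- lines and ΔHD1/fl line 2 held 3 each, in all 3 cases Gata3, Esr1 and Stat5a. ΔHD2/- lines 2 and 3 held 2 each, Stat5a and Kit. The set therefore did not split by genotype, since the line with the most and the 2 lines with the fewest luminal genes were all ΔHD2/-. Nor did it follow the epithelial genes, because ΔHD2/- lines 2 and 3 had Epcam at 804 and 910 CPM while both ΔHD1 line 2 cultures, without Epcam or Cdh1, kept Gata3 and Esr1. The count of luminal genes does not weigh basal genes. A list of 13 basal and myoepithelial genes summed to 19310 CPM in ΔHD2/fl line 2 and 9057 CPM in ΔHD2/fl line 1. In the other lines the sum was 503 to 4773 CPM.

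**Figure D1:**
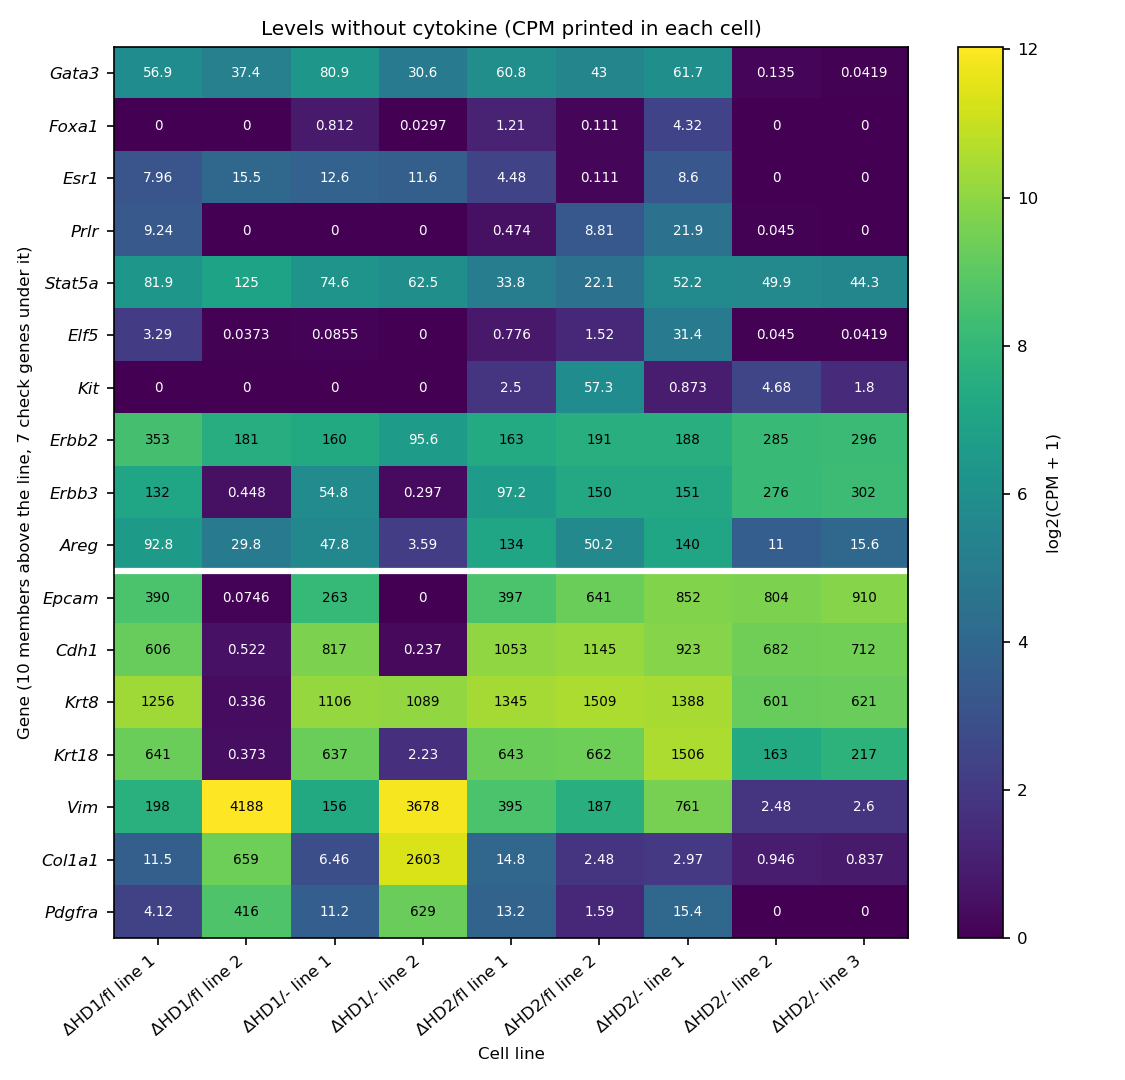
Levels in the 9 untreated lines (columns), 1 library each, with color for log2(CPM + 1) and the CPM printed in each cell. The 10 member genes stand above the white line and 7 epithelial, mesenchymal and fibroblast genes under it. Gata3 was at 0.135 and 0.0419 CPM in ΔHD2/- lines 2 and 3 and at 30.6 CPM or more in the other 7 lines.

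Gata3, the transcription factor that specifies and maintains luminal cells, was the hormone-sensing factor with the highest level per length. Without cytokine it was between 30.6 CPM (ΔHD1/- line 2) and 80.9 CPM (ΔHD1/- line 1) in 7 lines. It was at 0.135 CPM in ΔHD2/- line 2 and at 0.0419 CPM in ΔHD2/- line 3, both close to the 3-read limit. Esr1, the estrogen receptor, was at 4.48 to 15.5 CPM in 6 lines, highest in ΔHD1/fl line 2. It was at 0.111 CPM in ΔHD2/fl line 2 and at 0 in ΔHD2/- lines 2 and 3 under all 3 conditions. Foxa1, the pioneer factor that opens chromatin for the estrogen receptor, was low throughout, at 4.32 CPM in ΔHD2/- line 1, 1.21 CPM in ΔHD2/fl line 1 and under 1 CPM in the other 7 lines. Esr1 was thus present in 4 lines with Foxa1 under 1 CPM. The progesterone receptor Pgr, on the list of hormone-sensing genes and named here after its values were seen, was at 0 in 8 untreated lines and at 0.175 CPM in ΔHD2/- line 1.

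Prlr, the receptor for prolactin, was at 21.9 CPM in ΔHD2/- line 1, 8.81 CPM in ΔHD2/fl line 2 and 9.24 CPM in ΔHD1/fl line 1. In the other 6 untreated lines it was between 0 and 0.474 CPM. Elf5, the alveolar master factor, was at 31.4 CPM in ΔHD2/- line 1, at 3.29 CPM in ΔHD1/fl line 1 and at 1.52 CPM in ΔHD2/fl line 2, the same 3 lines. In the other 6 it did not exceed 0.776 CPM. Csn3 (κ-casein), on the alveolar list and named here after its values were seen, was at 37.1 CPM in ΔHD2/- line 1 and at most 0.37 CPM in every other untreated line. Of the other milk protein genes on this list, also named after their values were seen, Csn1s1 was at 3.01 CPM in that line, and Csn2, Csn1s2a, Wap and Lalba were at 0 in all 27 libraries. Kit was at 57.3 CPM in ΔHD2/fl line 2. It lay between 0.873 and 4.68 CPM in ΔHD2/fl line 1 and the 3 ΔHD2/- lines and was at 0 in all 4 untreated ΔHD1 lines. Stat5a, unlike its upstream receptor, was measured in all 9 lines, from 22.1 CPM in ΔHD2/fl line 2 to 125 CPM in ΔHD1/fl line 2 (median 52.2 CPM). Among the 3 lines with Prlr over 1 CPM, Stat5a was at 22.1 to 81.9 CPM, and in the other 6 it was at 33.8 to 125 CPM.

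**Figure D2:**
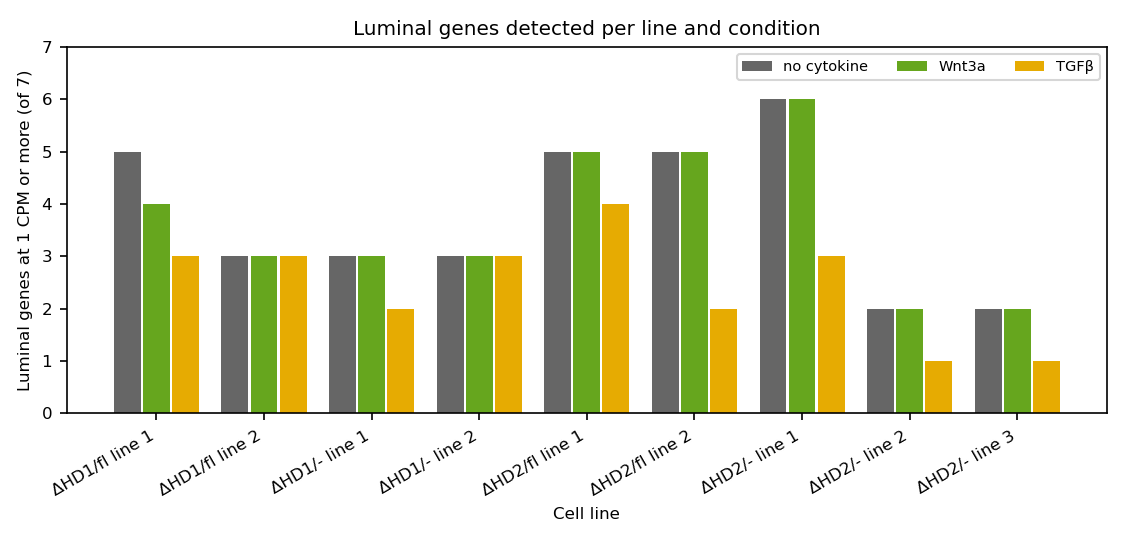
Number of the 7 luminal genes at 1 CPM or more (vertical axis) in each of 9 lines (horizontal axis) under no cytokine, Wnt3a or TGFβ, 1 library per bar. ΔHD2/- line 1 held 6 without cytokine and 3 with TGFβ, and ΔHD2/- lines 2 and 3 held 2 and then 1.

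The ErbB genes were distributed otherwise. Erbb2 was high in every untreated line, from 95.6 CPM in ΔHD1/- line 2 to 353 CPM in ΔHD1/fl line 1 (median 188 CPM). Erbb3 was highest in the lines without Gata3, at 276 and 302 CPM in ΔHD2/- lines 2 and 3. It was at 54.8 to 151 CPM in 5 further lines. The 2 lines without Epcam and Cdh1 were also without Erbb3, with 0.448 CPM (ΔHD1/fl) and 0.297 CPM (ΔHD1/-). Areg ranged from 3.59 CPM in ΔHD1/- line 2 to 140 CPM in ΔHD2/- line 1 (median 47.8 CPM), and was at 11.0 and 15.6 CPM in ΔHD2/- lines 2 and 3. Levels of different genes can be compared only per length. Per kilobase of exon (median of the untreated lines), Areg was at 39.4, Erbb2 at 37.6, Erbb3 at 22.0, Gata3 at 13.4 and Stat5a at 13.2 CPM per kb. Esr1 followed at 1.03 CPM per kb, and Kit, Elf5, Foxa1 and Prlr at 0.166, 0.0321, 0.0093 and 0.00343 CPM per kb. This order holds for the medians only, since Elf5 reached 11.8 CPM per kb in ΔHD2/- line 1 and Kit 10.9 CPM per kb in ΔHD2/fl line 2. Foxa1 and Prlr reached at most 1.355 and 1.67 CPM per kb. The first 5 overlapped between lines, whereas Esr1, at most 2.0 CPM per kb, did not reach the lowest Stat5a level. Areg spanned 2.96 to 115 and Erbb2 19.1 to 70.5 CPM per kb, and Gata3 spanned 0.013 to 25.2 and Stat5a 5.56 to 31.6 CPM per kb. Areg was the highest member in 5 lines and Erbb2 in 4 (the ΔHD1 line 2 cultures and ΔHD2/- lines 2 and 3).

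The second question was what TGFβ and Wnt3a change in these genes. TGFβ lowered the level of Stat5a in all 9 lines, and Stat5a was the 1 member called in the mean TGFβ response over the 4 genotypes. A gene was called where limma's Benjamini-Hochberg adjusted p was at most 0.05 and the absolute log2 fold change, on the log2(CPM + 1) scale, at least 1. Of all tested genes 5.42% were called in this comparison, against 1 of 10 members. The median log2 fold change of the members was -1.0, beside -0.16 over all 13270 genes. With cell line as a block, which uses the fact that each line was measured under all conditions, 5 of 10 members were called (Stat5a, Erbb3, Esr1, Kit and Prlr, all lower), beside 8.92% of all genes. With ΔHD2/- lines 2 and 3 averaged as 1 sample, 1 member was called as in the first fit, beside 4.3% of all genes. Under median-of-ratios scaling the median of all genes moved to -0.02, and the called genes of the whole table, 247 higher and 472 lower in CPM, became 318 higher and 316 lower. In bulk RNA, fewer cells of a type and less RNA per cell cannot be told apart.

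Stat5a was between 22.1 and 125 CPM without cytokine and between 8.4 and 44.0 CPM with TGFβ. It was lower with TGFβ in 9 of 9 lines, by 1.57-fold (ΔHD2/- line 3) to 7.31-fold (ΔHD1/- line 1). The groups overlapped between lines, but no single line moved the other way. The mean log2 fold change was -1.43 ± 0.22 (SE), adjusted p = 0.000393. It was -1.52 (adjusted p = 0.00386) without the 2 lines lacking Epcam and Cdh1. Its close relative Stat5b, whose sequence resembles it, had a log2 fold change of -0.55 ± 0.17 (adjusted p = 0.0337), under the fold limit, and was named after its values were seen. Reads were kept only where they aligned to 1 place.

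The promoter sequence of Stat5a is shown because it was the member called in the mean response. RefSeq (GRCm38.p6) gives 2 start sites for Stat5a, and the 250 bases before each start on the plus strand are printed in lower case. Capitals mark CAGGTG (or CACCTG, its reverse complement), an E-box to which the EMT repressors of the Snail and Zeb families are known to bind. The first window lies at chr11:100859406-100859655 and the second at chr11:100860234-100860483, both on GRCm38.
Stat5a first start: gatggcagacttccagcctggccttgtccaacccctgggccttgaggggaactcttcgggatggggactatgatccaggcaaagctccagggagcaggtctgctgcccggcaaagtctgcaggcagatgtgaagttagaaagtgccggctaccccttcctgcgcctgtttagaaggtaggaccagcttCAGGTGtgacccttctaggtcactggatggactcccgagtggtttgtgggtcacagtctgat
Stat5a second start: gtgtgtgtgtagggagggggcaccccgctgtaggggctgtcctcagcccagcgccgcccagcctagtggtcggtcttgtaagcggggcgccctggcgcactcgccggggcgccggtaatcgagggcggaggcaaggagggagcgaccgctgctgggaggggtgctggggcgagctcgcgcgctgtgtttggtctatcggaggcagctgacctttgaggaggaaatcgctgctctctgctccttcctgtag
Elf5 first start: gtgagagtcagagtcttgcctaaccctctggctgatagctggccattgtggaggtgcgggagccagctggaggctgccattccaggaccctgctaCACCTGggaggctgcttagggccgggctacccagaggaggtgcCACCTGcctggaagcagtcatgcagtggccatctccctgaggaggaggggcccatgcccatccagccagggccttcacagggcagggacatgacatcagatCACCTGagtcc
The third sequence is the window before the first start of Elf5, chr2:103411848-103412097 on the plus strand, shown because it held 3 copies, the most among the members. The first Stat5a window held 1 copy, starting 62 bases before the start site, and the second held none. The set of RefSeq promoter windows used here held 9 of 10 members (15 windows) and no window for Erbb3. Of these windows 5 held CAGGTG on either strand, among them those of Areg, Foxa1 and 1 of Prlr, compared with 17.2% of 32851 mouse promoter windows of the same length. The Stat5 motif TTCNNNGAA was found in 2 windows (7.02% of all) and the TCF/LEF motif CTTTGAT in 2 (3.21% of all), searched likewise. A single Prlr window held all 3 motifs, at separate places. A match is a stretch of letters and no measurement of binding.

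Erbb3 was lower with TGFβ in 9 of 9 lines. It went from 132 to 15.2 CPM in ΔHD1/fl line 1 and from 54.8 to 2.1 CPM in ΔHD1/- line 1, which is 8.72-fold and 26.0-fold lower. In the 5 ΔHD2 lines it was 1.97 to 2.64-fold lower, and 36.8 to 118 CPM were left. The ΔHD1 line 2 cultures had under 0.5 CPM before and after. The mean log2 fold change was -1.59 ± 1.07 (adjusted p = 0.33), not called, with lines of 1 group far apart in level. With cell line as a block it was called (adjusted p = 0.00642), and without the ΔHD1 line 2 cultures it was -2.44 ± 0.26 (adjusted p = 0.000176), also called. Erbb2 was lower with TGFβ in 9 of 9 lines too, by 1.09-fold in ΔHD1/fl line 2 to 1.95-fold in ΔHD1/fl line 1. Its mean log2 fold change of -0.52 ± 0.18 (adjusted p = 0.0612) was under the fold limit, also with the block (adjusted p = 0.000284).

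Areg did not move in 1 direction. It was higher with TGFβ in 5 lines, from 29.8 to 217 CPM in ΔHD1/fl line 2 (7.28-fold) and from 47.8 to 121 CPM in ΔHD1/- line 1 (2.53-fold). It was lower in 4 lines, from 50.2 to 13.6 CPM in ΔHD2/fl line 2 (3.68-fold). Both ΔHD2/fl lines were lower and both ΔHD1/- lines higher, while the lines of ΔHD1/fl and ΔHD2/- differed among themselves. The mean log2 fold change was 0.30 ± 0.72 (adjusted p = 0.82), and it changed sign to -0.09 without the ΔHD1 line 2 cultures.

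**Figure D3:**
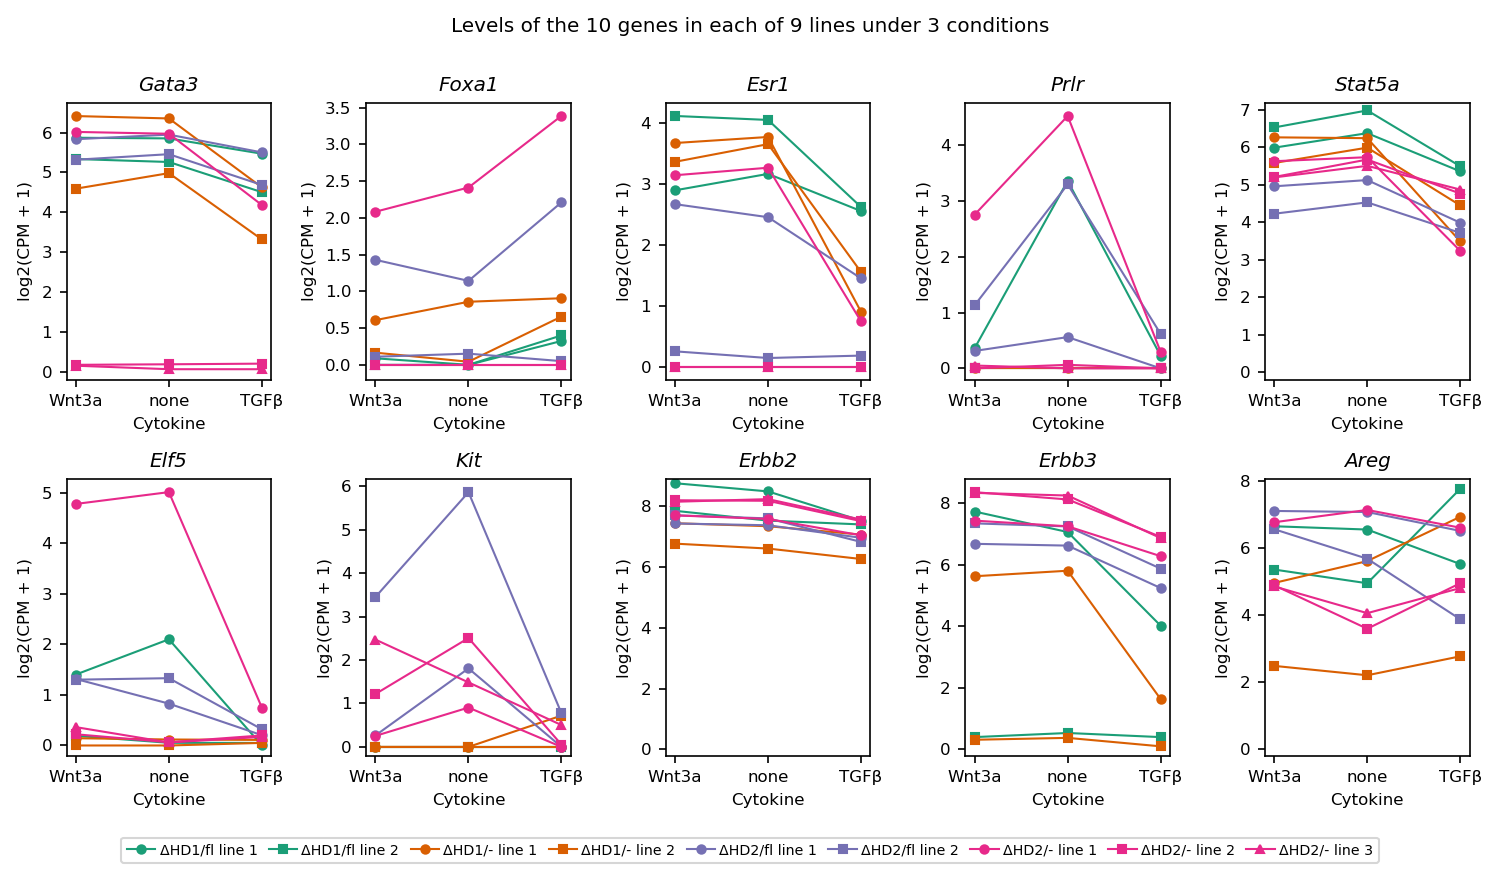
Levels as log2(CPM + 1) of the 10 members (panels, each with its own vertical scale) in each of 9 lines under Wnt3a, no cytokine and TGFβ, with color for the genotype, marker for the line number and a line joining the libraries of 1 cell line. Stat5a, Erbb2 and Erbb3 were lower with TGFβ than without cytokine in all 9 lines, and Areg was higher in 5 and lower in 4. For Erbb3 this includes changes from 12 to 9 reads in ΔHD1/fl line 2 and from 10 to 2 reads in ΔHD1/- line 2.

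The hormone-sensing factors responded unequally. Gata3 was lower with TGFβ in 7 of the 7 lines that expressed it, by 3.6-fold in ΔHD2/- line 1, 3.42-fold in ΔHD1/- line 1 and 3.41-fold in ΔHD1/- line 2, and by 1.31 to 1.74-fold in the 4 fl lines. Even with TGFβ these 7 lines stayed far above ΔHD2/- lines 2 and 3, the lowest being ΔHD1/- line 2 at 8.96 CPM. The mean log2 fold change was -0.87 ± 0.91 (adjusted p = 0.551), and with the block the adjusted p was 0.00191 at a fold under the limit. Without the ΔHD1 line 2 cultures it was -0.83 (adjusted p = 0.711). Esr1 was lower in 6 of the 6 lines that expressed it, by 14.4-fold in ΔHD1/- line 1 (12.6 to 0.873 CPM), 12.6-fold in ΔHD2/- line 1 (8.6 to 0.681 CPM) and 1.63 to 5.94-fold in the other 4. This gave a mean log2 fold change of -1.20 ± 0.55 (adjusted p = 0.141), called with the block (adjusted p = 0.00301) and not without the ΔHD1 line 2 cultures (-1.20, adjusted p = 0.327). Foxa1 was higher with TGFβ in the 2 lines with 1 CPM or more, from 1.21 to 3.63 CPM in ΔHD2/fl line 1 and from 4.32 to 9.46 CPM in ΔHD2/- line 1. Foxa1 was not called, with a mean log2 fold change of 0.38 ± 0.50 (adjusted p = 0.656, and 0.0561 with the block).

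Prlr, Elf5 and Kit were under 1 CPM in all 9 lines with TGFβ. Prlr went from 21.9 to 0.227 CPM in ΔHD2/- line 1, from 9.24 to 0.168 CPM in ΔHD1/fl line 1 and from 8.81 to 0.533 CPM in ΔHD2/fl line 2, lower in 3 of 3 lines with 1 CPM or more. Its mean log2 fold change was -1.15 ± 0.62 (adjusted p = 0.215), called with the block (adjusted p = 0.0469) and not without the ΔHD1 line 2 cultures (-1.54, adjusted p = 0.227). Elf5 went from 31.4 to 0.681 CPM in ΔHD2/- line 1 (46.0-fold) and was at 0 with TGFβ in ΔHD1/fl line 1, at least 26.1-fold lower when set against the 3-read limit of that library. Elf5 was not called, with a mean log2 fold change of -0.80 ± 0.67 (adjusted p = 0.443, and 0.127 with the block). Kit went from 57.3 to 0.71 CPM in ΔHD2/fl line 2 (80.7-fold) and was at least 22.0-fold lower in ΔHD2/fl line 1, where no read was left. It was lower in 4 of 4 lines with 1 CPM or more, and was at 0.648 CPM with TGFβ in ΔHD1/- line 2, where it had been at 0. The mean log2 fold change was -1.13 ± 0.49 (adjusted p = 0.125), called with the block (adjusted p = 0.00943) and also when ΔHD2/fl line 1 was left out (-1.54, adjusted p = 0.00849). The log2(CPM + 1) scale understates the change of such low genes, and the lines where a gene was absent before treatment draw its mean toward 0.

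In the mean Wnt3a response 0 of 10 members were called by limma, beside 0.0226% of all genes, and 0 had an unadjusted p under 0.05. With the block 0 of 10 were called as well (0.241% of all genes), and edgeR's quasi-likelihood test on the recovered reads also called 0. The members' median log2 fold change was -0.02, beside -0.06 over all genes. Prlr and Kit had the lowest values. Prlr was at 0.285 CPM with Wnt3a in ΔHD1/fl line 1 (32.4-fold lower than without cytokine), at 1.19 CPM in ΔHD2/fl line 2 (7.41-fold) and at 5.74 CPM in ΔHD2/- line 1 (3.82-fold), lower in 3 of 3 lines that expressed it. Its mean log2 fold change of -0.82 ± 0.62 did not pass (adjusted p = 1 without and 0.347 with the block). Kit was lower in 3 of the 4 lines with 1 CPM or more, from 57.3 to 9.95 CPM in ΔHD2/fl line 2 (5.76-fold), and higher in 1, from 1.8 to 4.54 CPM in ΔHD2/- line 3. Its mean log2 fold change was -0.57 ± 0.49 (adjusted p = 0.349 with the block). ΔHD2/- line 2, which otherwise resembled line 3, went from 4.68 to 1.33 CPM. Stat5a was lower in 8 of 9 lines by at most 1.39-fold, with a mean log2 fold change of -0.29 ± 0.22. Gata3, Esr1, Elf5 and Foxa1 had mean log2 fold changes between -0.05 and 0.01. Erbb2 was higher with Wnt3a in 8 of 9 lines, by at most 1.25-fold (mean log2 fold change 0.13 ± 0.18), and Erbb3 in 6 of the 7 lines that expressed it, with 1.59-fold in ΔHD1/fl line 1. Areg was higher in 7 of 9 lines (mean log2 fold change 0.27 ± 0.72, adjusted p = 1).

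**Figure D4:**
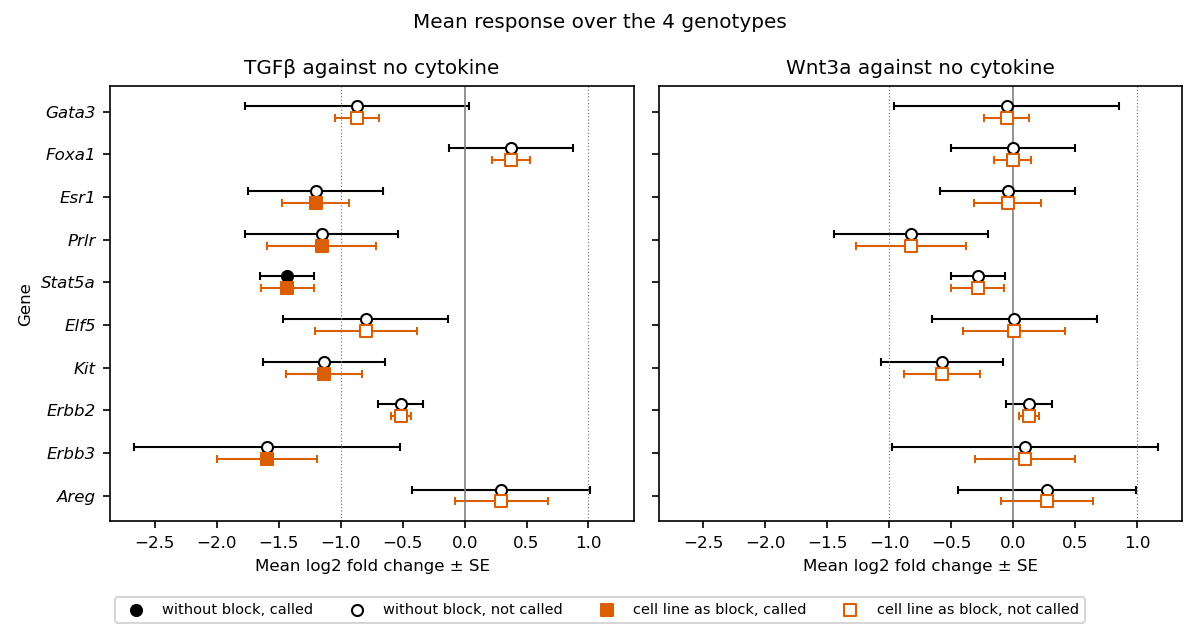
Mean log2 fold change over the 4 genotypes (horizontal axis, bars for the SE) of each member under TGFβ and Wnt3a, from the limma fit without a block (circles) and with cell line as a block (squares). Filled symbols mark called genes and dotted lines a log2 fold change of -1 and 1. Under TGFβ Stat5a was called without the block and 5 members with it, and under Wnt3a none was called.

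Within single genotypes the TGFβ response called 1 member, Stat5a in ΔHD1/- lines. There its mean was 68.5 ± 8.58 CPM (SD, n = 2) without cytokine and 15.5 ± 7.5 CPM (SD, n = 2) with TGFβ, with a log2 fold change of -2.15 ± 0.46 (adjusted p = 0.0255), beside 1.43% of all genes called. The call was lost in edgeR's quasi-likelihood test (adjusted p = 0.0613) and, in limma, without ΔHD1/- line 1 (-1.54, adjusted p = 0.468), without ΔHD1/- line 2 (-2.75, adjusted p = 0.101) or without both ΔHD1 line 2 cultures (adjusted p = 0.0594). It was also lost when ΔHD2/fl line 1 or 2 or ΔHD2/- line 2 or 3 was left out (Stat5a adjusted p = 0.0521 to 0.0664). Without both ΔHD1 line 2 cultures Erbb3 was called in its place (-4.17, adjusted p = 0.00536), beside 2.27% of all genes. Where 1 line remained in a group, it was assumed to vary like the others. With the block 3 members were called in ΔHD1/- lines, Stat5a, Esr1 (-2.48, adjusted p = 0.00922) and Gata3 (-1.70, adjusted p = 0.00824), beside 9.33% of all genes. In ΔHD1/fl lines 0 of 10 members were called, beside 0.211% of all genes, and 0 with the block (5.42%). In ΔHD2/fl lines 0 were called (0.286% of all genes), and with the block Kit was (-3.45 ± 1.03, adjusted p = 0.244 without and 0.00738 with it, 5.24% of all genes). The Kit value was -5.09 without ΔHD2/fl line 1 and -1.81 without line 2. In ΔHD2/- lines 0 were called (0.806%), and with the block Stat5a was (-1.35 ± 0.37, adjusted p = 0.112 without and 0.0282 with it, 6.03% of all genes). Without ΔHD2/- line 1 the Stat5a value was -0.77, under the fold limit. The Wnt3a response called 0 of 10 members in each genotype, and of all genes it called 0.00754% both in ΔHD1/- and in ΔHD2/- lines, 0.0151% in ΔHD1/fl lines and 0.113% in ΔHD2/fl lines. All genotype comparisons of 1 cytokine use their own untreated lines, but the Wnt3a and TGFβ responses of a genotype share them.

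The last question was whether loss of the floxed allele went with a change in these genes. Without a block, no member was called in any of the 6 comparisons of recombined with fl lines. For ΔHD1/- against ΔHD1/fl, 0.0678% of all genes were called without cytokine, 0.0452% with Wnt3a and 0.0301% with TGFβ, and for ΔHD2/- against ΔHD2/fl 0.55%, 0.686% and 0.354%. The lowest log2 fold change was that of Gata3 in ΔHD2/-, at 20.6 ± 35.6 CPM (SD, n = 3) without cytokine against 51.9 ± 12.6 CPM (SD, n = 2) in ΔHD2/fl. It was -3.63 ± 1.73 (adjusted p = 0.581), and with 61.7 CPM ΔHD2/- line 1 lay above both ΔHD2/fl lines while lines 2 and 3 lay near 0. Without ΔHD2/- line 1 Gata3 was called under no cytokine (-5.58, adjusted p = 5.33e-05), Wnt3a (adjusted p = 5.94e-05) and TGFβ (adjusted p = 0.000208), beside 5.67%, 5.17% and 3.37% of all genes, and this then rested on 2 lines that were nearly alike. For Kit the log2 fold change of ΔHD2/- against ΔHD2/fl without cytokine was -2.20 ± 0.94 (adjusted p = 0.522). It was -4.23 without ΔHD2/fl line 1 and -0.175 without ΔHD2/fl line 2, each with 1 fl line left, so its size depended on which fl line was kept. Erbb2 was at 128 ± 45.3 CPM (SD, n = 2) in ΔHD1/- and 267 ± 122 CPM (SD, n = 2) in ΔHD1/fl without cytokine, a log2 fold change of -1.03 ± 0.38 (adjusted p = 0.751), and of -1.14 (adjusted p = 0.17) between the 2 lines left without the ΔHD1 line 2 cultures. Under Wnt3a the corresponding value was -1.20 ± 0.38 (adjusted p = 0.625), and it was called without ΔHD1/fl line 2 (-1.65, adjusted p = 0.0314, beside 5.34% of all genes) but not without both ΔHD1 line 2 cultures (-1.31, adjusted p = 0.0657). An interaction term compared the response of recombined lines with that of fl lines, and each of the 10 members had an adjusted p of 1 for TGFβ and for Wnt3a in both mutants.

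Further genes of these pathways came from lists chosen by function, and their counts stand beside 5.42% of all genes called in the mean TGFβ response without the block, 8.92% with it and 7.79% without the ΔHD1 line 2 cultures. Of 18 other ErbB receptors, ligands and regulators, 15 were tested and 1 was called in the mean TGFβ response. Hbegf, a ligand of Egfr and Erbb4, rose in 9 of 9 lines, from 21.6 to 114 CPM without cytokine to 85.3 to 274 CPM with TGFβ, a log2 fold change of 1.89 ± 0.37 (adjusted p = 0.00238). The list had a median of -0.37, with 1 higher and 1 lower called with the block and 2 higher and 1 lower without the ΔHD1 line 2 cultures. Erbb4, the receptor of the alveolar lineage, was at 0 in all 27 libraries, and Egfr was at 25.1 to 233 CPM without cytokine with a log2 fold change of 0.10 ± 0.26 under TGFβ (both named after their values were seen). Of 19 other luminal transcription factors and hormone-sensing genes, 12 were tested and 3 were called, all lower, with a list median of -1.10. Ehf, an epithelial ETS factor related to Elf5, fell (log2 fold change -2.16 ± 0.56, adjusted p = 0.0144), as did Wnt4, the progesterone-induced Wnt ligand (-2.03 ± 0.47, adjusted p = 0.00704). With the block 6 of these genes were called, all lower, and 6 lower without the ΔHD1 line 2 cultures.

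Of 18 other alveolar and prolactin-Stat5 genes, 12 were tested and 2 were called, both lower, with a list median of -0.25. Id2, a helix-loop-helix factor needed for alveolar development, fell in 9 of 9 lines from 37.2 to 165 CPM without cytokine to 2.14 to 47.9 CPM (log2 fold change -2.78 ± 0.32, adjusted p = 4.72e-05). Kitl, the ligand of Kit, also fell in 9 of 9 lines (log2 fold change -2.38 ± 0.36, adjusted p = 0.000345). Under Wnt3a Id2 was lower in 9 of 9 lines, with a log2 fold change of -1.44 ± 0.32, not called without the block (adjusted p = 0.265) and called with it (adjusted p = 0.049) and without the ΔHD1 line 2 cultures (-1.51, adjusted p = 0.0198, beside 0.593% of all genes). No other gene of any list was called in the mean Wnt3a response in these 3 fits.

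The markers of cell types moved as follows in the mean TGFβ response, and their part in the members' changes was not tested. Of 17 luminal keratins and epithelial genes, all tested, 0 were called by limma without the block (2 higher and 6 lower with it, and 8 lower without the ΔHD1 line 2 cultures), with a median of -0.72. Krt8, with the highest median CPM of this list without cytokine (not set per length), had a log2 fold change of 0.64 ± 1.33 (adjusted p = 0.786). Of 13 basal and myoepithelial markers, 11 were tested and 3 fell, with a median of -1.06 (2 higher and 6 lower with the block, and 2 lower without the ΔHD1 line 2 cultures). The 2 that were higher with the block were the contractile genes Acta2 (2.01 ± 0.84, adjusted p = 0.108 without and 0.0321 with the block) and Tagln (1.65 ± 0.69, adjusted p = 0.111 and 0.0379), named after their values were seen, and without the ΔHD1 line 2 cultures their log2 fold changes were 0.68 and 0.59. Among the 3 that fell, Trp63, the basal transcription factor, had a log2 fold change of -2.73 ± 0.91 (adjusted p = 0.0472, and 0.0851 without the ΔHD1 line 2 cultures) and the integrin Itga6 of -2.12 ± 0.45 (adjusted p = 0.00429). Of 10 fibroblast markers, 8 were tested and 0 were called (1 higher with the block, Col1a1), with a median of 0.04. Col1a1 had a log2 fold change of 1.21 ± 1.45 (adjusted p = 0.613). Of 11 immune, endothelial and adipocyte markers, 4 were tested, and the endothelial cadherin Cdh5 rose from at most 0.407 CPM to 0.34 to 6.32 CPM (log2 fold change 1.20 ± 0.29, adjusted p = 0.00967).

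For each member the gene outside the list with the most similar profile was taken as the highest Pearson correlation of log2(CPM + 1) over the 27 libraries, which are 9 lines measured 3 times each. These values describe the profiles and carry no test. Erbb3 was most like Prkcz (0.987), an atypical protein kinase C of epithelial polarity. Gata3 was most like Krba1 (0.969), Elf5 like Ccrl2 (0.962) and Esr1 like the TGFβ coreceptor gene Tgfbr3 (0.941). Prlr was most like Ppp1r3c (0.938) and Kit like Ptn (0.932), 2 genes that, as the members did, reached high levels in few lines. For Stat5a, Erbb2, Foxa1 and Areg the values were 0.919 (Pdxk), 0.911 (Lrch4), 0.906 (Nrk) and 0.871 (Urb1).

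By position (GRCm38, GENCODE M21), Stat5a lies at chr11:100859351-100885169 and Erbb2 at chr11:98412470-98437716 on the plus strand. Gata3 lies at chr2:9857078-9890034 on the minus strand and Elf5 at chr2:103411688-103450989 on the plus strand. Erbb3 lies at chr10:128567523-128589652 on the minus strand and Esr1 at chr10:4611593-5005614 on the plus strand. Kit lies at chr5:75574916-75656722, Areg at chr5:91139599-91148432 and Prlr at chr15:10177238-10349180, all on the plus strand, and Foxa1 lies at chr12:57540628-57546916 on the minus strand. Annotated genes overlap Gata3 (4930412O13Rik and 9230102O04Rik), Foxa1 (Ttc6), Prlr (Gm41268), Erbb2 (Mien1) and Erbb3 (Mir6917). Whether reads were assigned by strand is not stated, so reads of these overlaps cannot be told apart and the values of these 5 genes are uncertain to that extent.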

How the data were processed

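RNA was measured in 9 mouse tumor cell lines under 3 conditions (27 libraries, 12 groups by genotype and treatment, taken from the labels). The authors made stranded mRNA libraries and aligned single reads to mm10 with STAR (named in the submitters' processing notes, version not given in the sources used here), keeping unique hits, and counted them per RefSeq gene with QuasR. The deposited values were CPM, without further scaling by the authors. Of 24454 Entrez identifiers 24374 matched a symbol. Whole reads were recovered for 100% of values (tolerance 0.01), at 21.86 to 33.69 M reads per library, so CPM of 3 reads or fewer (0.089 to 0.137) were read as near 0.

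Genes that reached 1 CPM in 2 or more libraries (13270) entered 1 limma 3.58.1 fit (R 4.3.3, trend and robust) of 12 group means on the log2(CPM + 1) scale, with p adjusted over all of them by Benjamini and Hochberg. This fit was chosen in place of the count test of the study because the deposited values were CPM. A count test on the recovered reads is among the alternatives below. Calls needed an adjusted p up to 0.05 and a log2 fold change of 1 or more in size. P-values of the fit without a block measure the spread between cell lines. With cell line as a block, the level of each line is removed, and they measure how far the responses of lines differ. Libraries of 1 line deviated together from their group means (correlation 0.509 to 0.94), so cell line was also fitted as a block. The fit was repeated without each line, without the filter, with a pseudocount of 0.1, after median-of-ratios scaling, and with edgeR 4.0.16 on the recovered reads. After seeing the data, 2 alternatives were added, leaving out both ΔHD1 line 2 cultures and averaging ΔHD2/- lines 2 and 3. The scripts were tested on simulated data.

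The members, gene lists and tests were chosen with earlier results of these data known. Named were all members, up to 2 called genes each way per list by size of change (or its gene with the highest CPM), the epithelial check genes and 1 gene most like each member. Other genes are marked where they appear. The values of 1 called gene of a list are not reported here.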

Additional observations from a re-analysis of the deposited data

Results flagged for a closer look

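In each of 20 sets of 9 line changes (10 members under TGFβ and Wnt3a) the line farthest from the rest was looked for by Dixon's test, which chance alone meets in about 1 of 20 sets, and 2 were found. The Gata3 change under Wnt3a in ΔHD1/- line 2 was -0.39 on the log2(CPM + 1) scale, while the other 8 lines lay closer to 0 (gap over range 0.525). The Erbb3 change under Wnt3a in ΔHD1/fl line 1 was 0.66, above all other lines (gap over range 0.508). Neither change belongs to a called comparison. In each of the same 20 sets, all 6 pairs of genotypes were checked for lines of 1 genotype that all moved against those of the other. Over all sets and pairs 5 such cases were found. With 2 or 3 lines per genotype, random signs also give such cases, and these differences were not tested. Areg under TGFβ was lower in both ΔHD2/fl lines and higher in both ΔHD1/- lines, with means that differed by -2.13 on the log2 scale (ΔHD2/fl minus ΔHD1/-). Under Wnt3a the differences were smaller. Erbb3 was higher in ΔHD2/fl (0.198) and in ΔHD2/- lines (0.29) where it was lower in ΔHD1/- lines (line 2 of these at 10 and 6 reads), Esr1 was higher in ΔHD2/fl and lower in ΔHD1/- lines (0.36, with ΔHD2/fl line 2 at only 3 reads without cytokine and 5 with Wnt3a), and Gata3 was lower in ΔHD2/fl and higher in ΔHD1/fl lines (-0.17).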

How the results depend on the processing

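The number of called members in the mean TGFβ response was 1 and became 5 with cell line as a replicate block, 1 to 2 when 1 line was left out (2 without ΔHD2/fl line 1, beside 3.53% of all genes), and 2 without both ΔHD1 line 2 cultures (7.79% of all genes). For TGFβ in ΔHD1/fl lines it was 0 and became 1 without these cultures (Erbb3, adjusted p = 0.0314, beside 2.5% of all genes). In ΔHD1/- lines it was 1 and became 0 with edgeR (0.528% of all genes), 3 with the replicate block, 0 to 1 when 1 line was left out, and 0 with ΔHD2/- lines 2 and 3 averaged. In ΔHD2/fl lines it was 0, 1 with the block and 0 to 1 when 1 line was left out (Kit without ΔHD2/fl line 1, beside 0.205% of all genes), and in ΔHD2/- lines 0 and 1 with the block. With the replicate number as a block between recombined and fl lines, 1 member (Erbb2) was called for ΔHD1/- against ΔHD1/fl without cytokine (adjusted p = 0.0405, beside 0.279% of all genes) and 1 with Wnt3a (adjusted p = 0.014, beside 0.309%), against 0. Same-numbered lines correlated at 0.117 to 0.472 in ΔHD1 and at 0.0871 to 0.19 in ΔHD2, with 2 pairs each. In ΔHD1, with 2 lines per group, both pairs of a condition have the same value by construction. The paper made recombined lines from cells with 1 floxed and 1 mutant allele, but the labels give no pairing by number. The numbers were therefore not taken as pairs. Leaving out 1 line gave 0 to 1 in the Wnt3a comparison of ΔHD1/- with ΔHD1/fl (1 without ΔHD1/fl line 2, beside 5.34% of all genes) and in all 3 comparisons of ΔHD2/- with ΔHD2/fl, where 3.37 to 5.67% of all genes were called without ΔHD2/- line 1. The block of cell line changed no other count of members. The mean TGFβ change of Areg reversed to -0.092 without both ΔHD1 line 2 cultures and ran from -0.186 (without ΔHD1/fl line 2) to 0.78 over all alternatives. Of 384 alternative values of 24 named results, 357 kept direction and call, 9 lost the call, 16 gained it and 2 reversed. The cause of these changes was not tested. Levels of 3 reads or fewer (0.089 to 0.137 CPM, by library) are near the limit of detection, and 2 or 3 lines per group limit every comparison within a genotype.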
